A study of Mus musculus with 2 samples.

Results

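Chemokine ligands are small secreted proteins that guide leukocytes along their gradients. Of this family, 10 genes that macrophages can express were examined in RAW264.7, a mouse macrophage-like leukaemia line. They were chosen by name, Ccl2, Ccl3, Ccl4, Ccl5, Ccl6, Ccl7, Ccl9, Cxcl2, Cxcl10 and Cxcl16, and all 10 had a row among the 56791 genes of the deposited count table. The series asked how a preparation called FAPD10-exos bears on M2 polarization, the state that IL-4 induces in macrophages. Both cultures were labelled WT and, as the protocol is read here, both were kept for 24 h with mouse recombinant IL-4, 20 ng of it. To 1 of them 10000000 particles of FAPD10-exos were added over the same time, and the other received vehicle. No culture without IL-4 is described, so the values compare IL-4 with particles against IL-4 alone and do not show what IL-4 did.

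Each group held 1 library, with 37196241 counts after FAPD10-exos and 36152743 after vehicle. No difference has a replicate check or a p-value, and each holds for this pair of libraries alone. Every ratio has FAPD10-exos over vehicle, and ranges after a ratio are 95% counting intervals, which leave out the spread between cultures. Low counts, from 1 to 50, were even numbers in 76.3% of genes with FAPD10-exos and 75.1% with vehicle, so both ends of a read pair may have been counted. Intervals of the ratios of single genes and of pairs were therefore also computed with counts halved. Those of levels and shares were not. The defining markers of the labelled cell type were present: 10 of 10 macrophage markers had a count, and their sum was 2064 CPM (counts per 1000000 scaled counts) with FAPD10-exos and 2156 CPM with vehicle. Of these sums Lyz2 alone gave 1013 and 1110 CPM. Single markers differed in both directions. Adgre1 had a ratio of 2.91 (2.28 to 3.75) and Spi1 one of 1.60 (1.54 to 1.66), whereas Cd68 stood at 0.81 and Csf1r at 0.84. Markers of fibroblasts and mesenchymal progenitors summed to 0.281 and 0.159 CPM and those of muscle to 0.337 and 0.529 CPM. Endothelial markers summed to 0.731 and 0.370 CPM and lymphocyte markers to 0.169 and 0.106 CPM. Any count was found for 3 of 10 fibroblast and progenitor markers and 3 of 6 muscle markers. The same held for 4 of 5 endothelial and 3 of 6 lymphocyte markers. Pecam1 had 24 counts with FAPD10-exos and 6 with vehicle, Des 0 and 10, Acta1 10 and 0 and Ckm 2 and 10. Col1a1, Dcn, Pax7, Cldn5, Cd3e and Ms4a1 had 0 counts in both libraries. Mrc1, a macrophage marker that IL-4 is known to induce, had 2 counts in each. In such bulk libraries, fewer cells making a chemokine and less of its RNA per cell cannot be told apart.

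Chemokines act through receptors that couple to inhibitory G proteins, and their names follow the spacing of the first cysteines, adjacent in the CC (Ccl) and separated by a residue in the CXC (Cxcl) ligands. Ccl2 and Ccl7 recruit monocytes through the receptor Ccr2. Ccl3 and Ccl5 act through Ccr1 among others, which is a receptor of Ccl6 and Ccl9 as well, and Ccl4 attracts monocytes and T cells. Cxcl2 attracts neutrophils through Cxcr2, the interferon-inducible Cxcl10 attracts T cells through Cxcr3, and Cxcl16 is made as a membrane protein that binds Cxcr6 and can be shed. Several of these genes are known targets of NF-kappaB in macrophages activated through Toll-like receptors.

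The sequences before the transcription start are shown for Cxcl2, the member with the largest difference among those at 1 CPM or more, for Ccl9, the member with the most counts, and for Ccl3, the member with the highest level per length. They are the 250 bases upstream of the RefSeq start on GRCm38.p6, written 5′ to 3′ along the gene, with matches to the NF-kappaB binding consensus (kappaB, 10 bases, both strands) in capitals. RefSeq promoters matched 5 of the 10 members.
Cxcl2, chr5:90903649-90903898, plus strand: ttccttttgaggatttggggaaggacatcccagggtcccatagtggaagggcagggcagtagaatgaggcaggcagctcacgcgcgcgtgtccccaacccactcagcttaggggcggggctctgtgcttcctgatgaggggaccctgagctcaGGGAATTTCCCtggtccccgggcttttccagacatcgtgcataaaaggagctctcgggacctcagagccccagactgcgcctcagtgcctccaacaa
Ccl9, chr11:83578637-83578886, minus strand: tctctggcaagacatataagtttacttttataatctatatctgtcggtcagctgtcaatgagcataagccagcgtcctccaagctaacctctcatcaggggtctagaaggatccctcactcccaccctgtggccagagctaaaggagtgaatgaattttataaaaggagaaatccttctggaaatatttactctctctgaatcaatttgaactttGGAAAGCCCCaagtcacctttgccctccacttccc
Ccl3, chr11:83649379-83649628, minus strand: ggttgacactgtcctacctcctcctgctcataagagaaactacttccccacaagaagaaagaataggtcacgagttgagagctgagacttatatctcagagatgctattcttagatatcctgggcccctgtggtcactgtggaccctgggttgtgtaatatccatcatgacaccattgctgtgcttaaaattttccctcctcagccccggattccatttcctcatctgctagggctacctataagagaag

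The Cxcl2 window held overlapping kappaB matches on both strands, the first beginning 97 bases before the start. The Ccl9 window held 1 match, beginning 35 bases before the start, and the Ccl3 window held 0. Among the members not printed, the Cxcl10 window held 2 and the Ccl6 window 0. Of 32851 promoter windows of this length, 3.90% held a match. Searched on both strands too, the core of the interferon-stimulated response element, a pair of GAAA separated by NN, was in the Cxcl10 window and in 2.98% of all windows. The pattern TGANTCA, wider than the AP-1 consensus TGA(G/C)TCA, was in those of Cxcl10 (TGAGTCA) and Ccl9 (TGAATCA) and in 6.75% of all. The Ccl9 match lies outside the stricter consensus. The TATA box TATAAA was in the window of Ccl9 and in 12.4% of all. A match describes letters in this window and is not a measured site.

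Most of the chemokine RNA in both libraries came from Ccl9 and Ccl3. Ccl9, a monocyte attractant also known from osteoclast precursors, had 2584 counts with FAPD10-exos and 3090 with vehicle, or 72.6 and 81.8 CPM. Ccl3, macrophage inflammatory protein 1 alpha, had 1116 and 1315 counts, or 31.4 and 34.8 CPM. Both were a little lower with FAPD10-exos. Cxcl16 followed with 628 and 535 counts, 17.6 and 14.2 CPM, and was a little higher with FAPD10-exos.

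Ccl4, macrophage inflammatory protein 1 beta, had 122 counts with FAPD10-exos and 85 with vehicle, or 3.43 and 2.25 CPM. Cxcl2 had 82 and 189 counts, or 2.30 and 5.001 CPM, the only member at 1 CPM or more whose count with FAPD10-exos was under 50% of that with vehicle. These 5 genes reached a mean of 1 CPM and are called measured here, as were 12264 genes of the table.

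The other 5 members were under 1 CPM in both libraries. Ccl6, a close relative of Ccl9, had 28 counts with FAPD10-exos and 24 with vehicle. Cxcl10 had 8 and 6, Ccl5, also known as RANTES, had 7 and 2, and Ccl2 had 2 and 6. Ccl7 had 0 in both libraries, where a count of 0 allows up to 3 counts, or 0.0843 CPM with FAPD10-exos and 0.0794 CPM with vehicle. No difference between the libraries was detectable for Ccl2, Ccl5, Ccl6 or Cxcl10 at this depth.

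**Figure D1:**
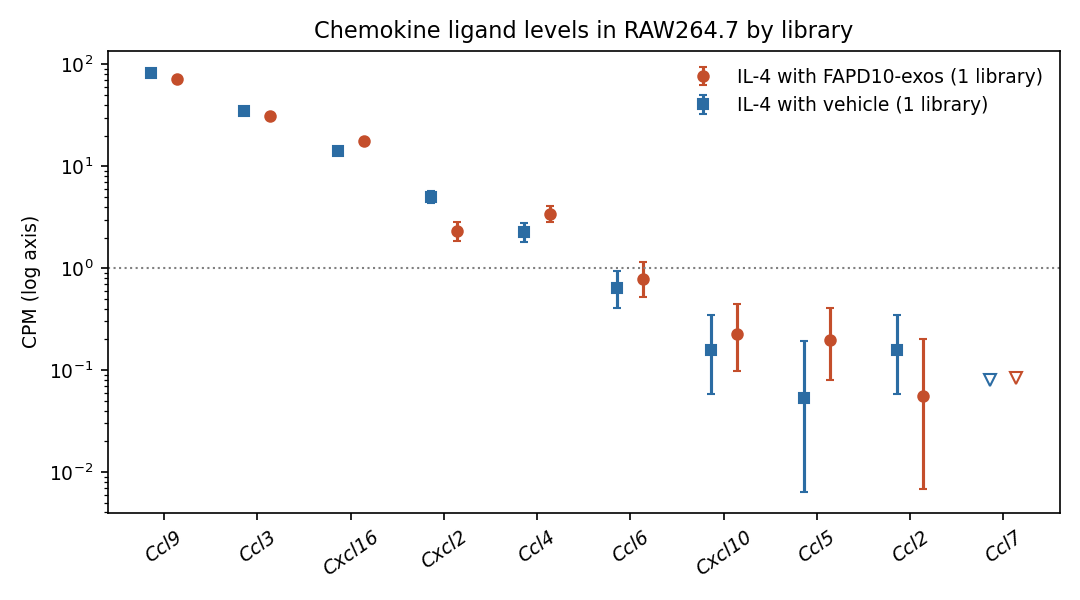
Level of each chemokine ligand in CPM (log axis) with FAPD10-exos (circles) and with vehicle (squares), with exact Poisson 95% intervals of the counts; open triangles mark the 3-count limit for a gene with 0 counts and the dotted line marks 1 CPM. Ccl9, Ccl3, Cxcl16, Cxcl2 and Ccl4 lie above 1 CPM in both libraries, and Cxcl2 and Ccl4 change places between them.

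Levels of different genes were compared per length, as TPM, transcripts per 1000000 over the exon length in the deposited table. Ccl3 was highest, at 98.2 TPM with FAPD10-exos and 137 TPM with vehicle, before Ccl9 at 57.2 and 81.0 TPM. Cxcl16 came next at 14.02 and 14.1 TPM, then Ccl4 at 12.5 and 10.3 TPM, Cxcl2 at 2.67 and 7.29 TPM and Ccl6 at 1.05 and 1.07 TPM. The order of these 6 was the same in both libraries. With FAPD10-exos the counting intervals of Cxcl16 and Ccl4 overlapped, and with vehicle those of Ccl4 (8.21 to 12.7) and Cxcl2 (6.29 to 8.41). The other neighbours among the 6 did not overlap. With the length of the reference transcript, which is much shorter for Cxcl2, Cxcl2 at 9.73 TPM stood above Ccl4 at 7.36 TPM with vehicle, and with FAPD10-exos it stayed below, at 3.54 against 8.86 TPM. Ccl5, Cxcl10 and Ccl2 lay between 0.118 and 0.492 TPM in both libraries, with overlapping intervals. TPM depends on all other genes of a library and was not used to compare libraries.

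Cxcl2 was 2.17-fold lower with FAPD10-exos (1.67 to 2.85), or 1.498 to 3.23 with counts halved. Ccl4 was 1.52-fold higher (1.15 to 2.04), with a halved interval of 1.003 to 2.28. Genes with a ratio of 1.5-fold or more and an interval that excludes 1 are called higher or lower. By that rule, 1 of 5 measured members was higher and 1 lower, where 17.1% of all measured genes were called higher and 19.8% lower. Those shares are near the members' own, so the counts say nothing particular to chemokines. Of all calls 46.3% were higher, and under scaling by total counts 32.3%, which shifted the median over all measured genes by -0.128 in log2. Ccl4 stood at 0.48 in log2 under that scaling and at 0.57 under median of ratios, both below 1.5-fold.

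Ccl9, Ccl3 and Cxcl16 were below that fold, with narrow intervals. Ccl9 was 1.13-fold lower (1.07 to 1.19) and Ccl3 1.11-fold lower (1.02 to 1.20). Cxcl16 had a ratio of 1.25 (1.11 to 1.40). With counts halved, the interval of Ccl3 included 1, at 0.990 to 1.25-fold lower, whereas those of Ccl9 and Cxcl16 did not. The directions of these 3 genes were the same under all 4 scalings. The median log2 ratio over the 5 measured members was -0.15, beside 0.01 over all measured genes. The 10 members summed to 129 CPM with FAPD10-exos and 139 CPM with vehicle, a sum 1.08-fold lower (1.04 to 1.12). Ccl3 and Ccl9 made up 80.8% and 83.9% of this sum, so it mostly repeats their ratios. Its interval was not computed with counts halved or under the other scalings.

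Of the members under the filter, Ccl6 had a ratio of 1.24 (0.693 to 2.23) and Cxcl10 one of 1.42 (0.431 to 4.95). Ccl5 had a ratio of 3.72 (0.708 to 36.7) and Ccl2 one of 0.354 (0.0349 to 1.98). All 4 intervals included 1, and their width shows how little so few counts can say about a change in either direction.

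**Figure D2:**
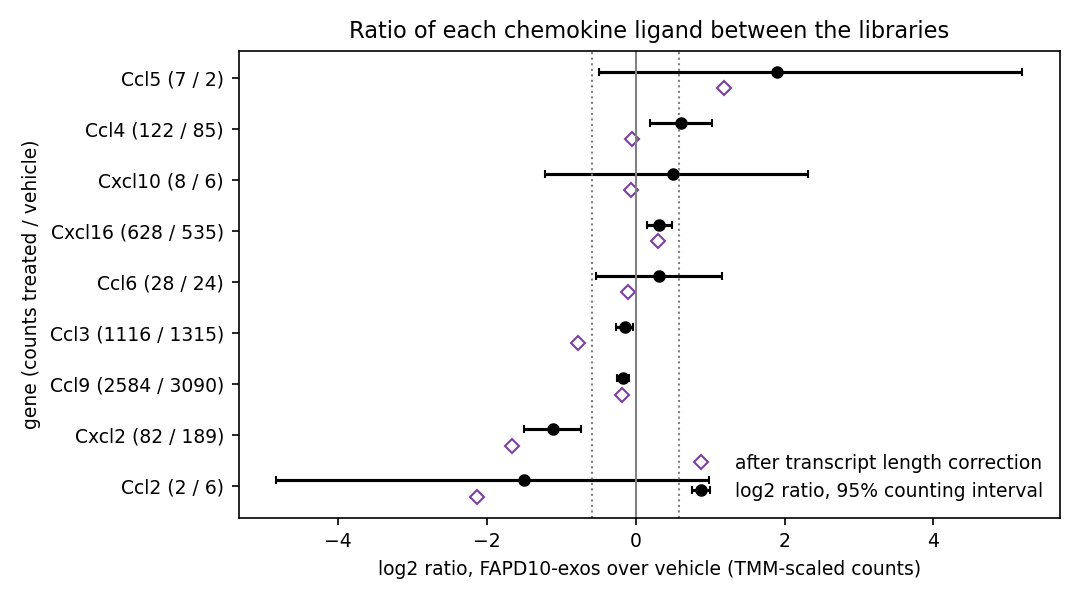
Log2 ratio of each chemokine ligand with a count, FAPD10-exos over vehicle, with 95% counting intervals (filled circles) and the value after correction for transcript length (open diamonds); dotted lines mark 1.5-fold and the labels give the counts. Cxcl2 lies beyond the dotted line before and after the correction, Ccl4 moves from 0.61 to -0.05 and Ccl3 from -0.15 to -0.77.

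Ratios went with transcript length in these libraries, and 3 of the 5 measured members have short transcripts. Across 9966 measured protein-coding genes, Spearman's rho of the log2 ratio with the principal transcript's length was -0.60, a description over genes that share the same libraries. The 997 shortest, up to 1213 nt, had their median at 0.61 in log2, and the 997 longest, from 6383 nt, at -0.76. Ccl4 (660 nt), Ccl3 (766 nt) and Cxcl2 (1109 nt) fall in the shortest of these bins, while Cxcl16 (2699 nt) and Ccl9 (3006 nt) lie near the middle. The part of this trend in the members' ratios was not tested beyond subtracting it.

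At the lengths of Ccl4, Ccl3 and Cxcl2 the running median of the log2 ratio was 0.66, 0.62 and 0.55. After it was subtracted, Ccl4 stood at -0.05, close to the median of transcripts of its length. Ccl3 stood at -0.77 and Cxcl2 at -1.67, both lower than most transcripts of their length. Ccl9 stood at -0.19 and Cxcl16 at 0.30, little changed. By the same 1.5-fold rule after the correction, 0 of the 5 measured members were higher and 2, Ccl3 and Cxcl2, were lower, where 9.78% of 11721 measured genes with a known length were called higher and 15.7% lower. Cxcl2 was at percentile 6.53 of all measured genes by its log2 ratio and at percentile 1.44 after the correction. Ccl3 went from percentile 40.7 to 9.86 and Ccl4 from 83.7 to 48.1.

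**Figure D3:**
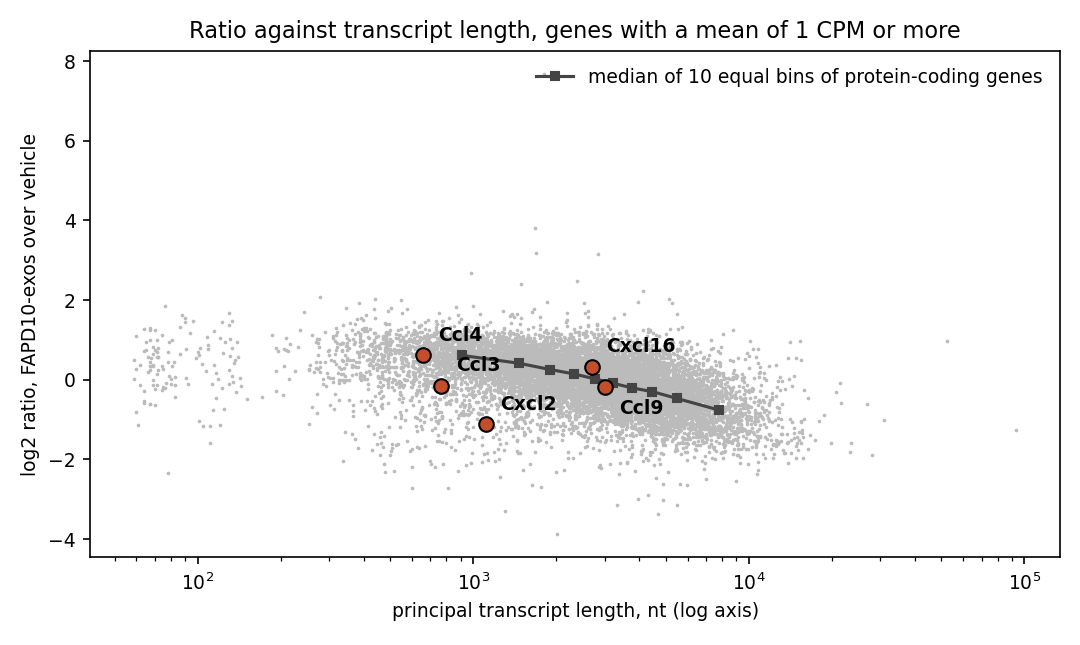
Log2 ratio, FAPD10-exos over vehicle, of each measured gene against the length of its principal transcript in nucleotides (log axis); grey points are genes, squares are medians of 10 equal bins of protein-coding genes placed at the bin's median length, and the 5 measured chemokine ligands are labelled. Ccl4 lies near the binned medians at its length, whereas Ccl3 and Cxcl2 lie below them.

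Shares within the chemokine ligand counts do not depend on the scaling between libraries. All chemokine ligands together had 5080 counts with FAPD10-exos and 5776 with vehicle, which is 0.0137% and 0.0160% of all counts. Ccl9 made up 50.9% of them with FAPD10-exos (exact binomial interval 49.5% to 52.25%) and 53.5% with vehicle (52.20% to 54.8%), intervals that just overlap. Ccl3 made up 22.0% (20.8% to 23.1%) and 22.8% (21.7% to 23.9%), intervals that overlap. Cxcl16 took 12.4% (11.5% to 13.3%) of the ligand counts with FAPD10-exos and 9.26% (8.53% to 10.04%) with vehicle. The share of Cxcl2 was 1.61% (1.29% to 1.9997%) against 3.27% (2.83% to 3.76%), and that of Ccl4 was 2.40% (1.998% to 2.86%) against 1.47% (1.18% to 1.82%). The last 3 pairs of intervals did not overlap, but they were not recomputed with counts halved. For Ccl4 the limits that face each other, 1.998% and 1.82%, are close. The sum includes Ccl25, whose value is uncertain. Over the 10 members alone, Ccl9 held 56.5% with FAPD10-exos and 58.8% with vehicle, Ccl3 24.4% and 25.0%, and Cxcl16 13.7% and 10.2%.

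**Figure D4:**
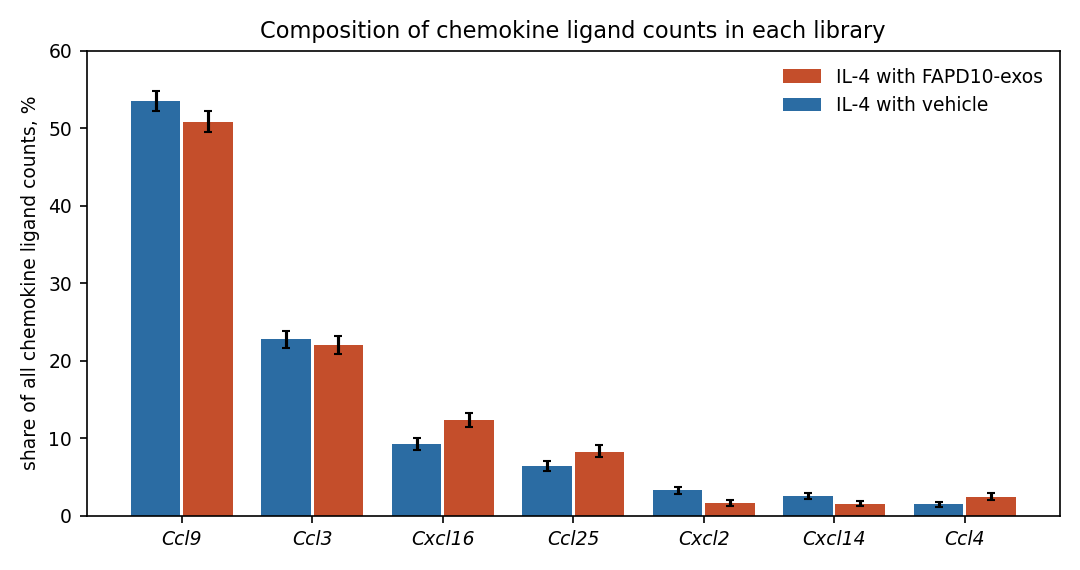
Share of all chemokine ligand counts, in percent, held by the 7 ligands with the most counts, with FAPD10-exos and with vehicle; bars start at 0 and whiskers are exact binomial 95% intervals. Ccl9 and Ccl3 hold 72.8% of the ligand counts with FAPD10-exos and 76.3% with vehicle, and the shares of Cxcl16 and Cxcl2 differ in opposite directions.

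Pairs of members were set against each other in the same way. For each pair of the 5 measured members, the count ratio of the pair with FAPD10-exos was divided by that with vehicle. Of 10 pairs, 8 had an interval that excluded 1, also with counts halved. The share among pairs of all measured genes was not computed, so this count says nothing particular to chemokines. Nor were pair ratios corrected for length, where the running median is 0.66 for Ccl4 but 0.02 for Ccl9 and Cxcl16. Ccl3 and Ccl9 did not differ beyond counting error, with 0.432 Ccl3 counts per Ccl9 count with FAPD10-exos and 0.426 with vehicle, a ratio of 1.01 (0.921 to 1.12). Ccl4 and Cxcl16 also did not differ beyond counting error, at 1.22 (0.897 to 1.67). The largest was Ccl4 against Cxcl2, with 1.49 Ccl4 counts per Cxcl2 count with FAPD10-exos and 0.450 with vehicle, a ratio of 3.30 (2.22 to 4.92). Cxcl16 against Cxcl2 gave 2.70 (2.02 to 3.64), and Ccl4 against its neighbour and close homologue Ccl3 gave 1.69 (1.26 to 2.28).

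The members lie in the known chemokine gene clusters. In the deposited table, whose mouse build none of the sources used here gives, Ccl5, Ccl9, Ccl6, Ccl3 and Ccl4 follow each other on chromosome 11 between 83416604 and 83555509. Ccl9 and Ccl3, the most abundant members, share this stretch with Ccl5 and Ccl6, both under 1 CPM: 9245 bases separate Ccl9 from Ccl6, and 13228 separate Ccl3, on the minus strand, from Ccl4, on the plus strand. Ccl2 (81926397 to 81928279) and Ccl7 (81936538 to 81938351) lie in another group on the same chromosome, in which Ccl8, Ccl11 and Ccl12 had 0 counts in both libraries. Cxcl16 stands apart from both, from 70344809 to 70350810 on the minus strand. Cxcl2 is a plus-strand gene of chromosome 5, at 91051730 to 91053797, beside Cxcl1, which had 0 counts in both libraries, and Cxcl10 lies further along from 92494497 to 92496748. All 10 genes code for proteins, and the table counts reads over their exons. For Cxcl2 and Cxcl10 these merge to 1 stretch over the whole gene. It is 2068 and 2252 bases long, against 1109 and 1094 nt for the principal transcript. Reads from introns may thus be among the counts of these genes.

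Overlapping genes make some of these counts uncertain, since the strand setting of the counting is not given. Of the exon length of Ccl3, 34.7% lies in exons of Gm53692, a gene model on the opposite strand with 1156 counts with FAPD10-exos and 1333 with vehicle, nearly those of Ccl3 itself. Reads from this pair cannot be told apart, so both levels are uncertain. The ratio of Gm53692 was 0.921 (0.851 to 0.997). Zmynd15 covers 18.3% of the exon length of Cxcl16, and Art3 5.91% of that of Cxcl10. The other 7 members share no exon with other genes of the table.

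Among 31 further chemokine ligands, 30 had a row in the table, 9 had a count and 2 were measured. Ccl25, a ligand of gut and thymus homing cells, had 420 and 367 counts, a ratio of 1.22 (1.05 to 1.40), and an interval that included 1 with counts halved (0.990 to 1.49). Its deposited gene model is long and overlaps Elavl1, so its value is uncertain. Cxcl14 had 77 and 144 counts and was 1.76-fold lower with FAPD10-exos (1.33 to 2.35). Corrected for length it was at -1.07 in log2. Of the ligands that IL-4 is known to induce in macrophages, Ccl17 and Ccl24 had 0 counts in both libraries and Ccl22 had 2 in each.

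The receptors of the members described here had few counts. Cxcr6 had 0 counts in both libraries, Ccr1 had 4 and 2, and Cxcr2 had 2 and 0. Ccr2 had 8 counts with FAPD10-exos and 19 with vehicle, an interval of the ratio that included 1 (0.169 to 1.07). Cxcr3, the receptor of Cxcl10, had 24 against 4 counts, a ratio of 6.37 (2.19 to 25.3; 1.42 to 58.6 with counts halved), though it stayed under the 1 CPM filter.

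Of 24 receptor genes, 12 had a count and 3 were measured. Cx3cr1, the fractalkine receptor, was the most abundant at 109 and 78.8 CPM, a ratio of 1.39 (1.32 to 1.45) that lay below the threshold, and 0.76 in log2 once corrected for length, above it. Cxcr5 had 148 and 112 counts, a ratio of 1.40 (1.09 to 1.81), and an interval that included 1 with counts halved (0.978 to 2.02). Ccr10 had 27 and 83 counts and was 2.89-fold lower with FAPD10-exos (1.86 to 4.65), the 1 receptor called. That made 0 of 3 higher and 1 lower, beside 17.1% and 19.8% of all measured genes. After the length correction 1 was higher, Cx3cr1, and 1 lower, Ccr10, beside 9.78% and 15.7% of all genes so corrected. Cxcr4 had 4 and 16 counts, a ratio of 0.266 (0.0646 to 0.823), and an interval that included 1 with counts halved (0.0275 to 1.33). The atypical receptor Ackr4 had 33 and 31 counts. Both genes were under the filter.

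Genes that carry the receptor signal were mostly below the 1.5-fold threshold. Of 23 measured genes 0 were called higher, beside 17.1% of all measured genes, and 3 lower, beside 19.8%. Their median log2 ratio was 0.01. Prex1, an exchange factor for Rac proteins, was 2.15-fold lower (2.02 to 2.29), Pik3cg, a phosphoinositide kinase downstream of chemokine receptors, 1.88-fold lower (1.60 to 2.21) and Dock2, an exchange factor for leukocyte migration, 1.53-fold lower (1.47 to 1.59). They have long transcripts, and the length correction put them at -0.50, -0.41 and -0.02, so that none of the 3 was called then. Gnb1 and Rac1, named after their values were seen, were called higher after it, at 0.59 and 0.80, which made 2 of 23 higher and 0 lower beside 9.78% and 15.7% of all genes, and Rac1 shares 51.4% of its exon length with Daglb.

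The genes of chemokine shedding and cleavage were lower with FAPD10-exos where called. Of 5 measured genes, 4 were called lower, beside 19.8% of all measured genes, and 0 higher, beside 17.1%. The measured gene not called, Ctss, named after its values were seen, went the other way. It had the highest CPM of the 5, 375 with FAPD10-exos and 329 with vehicle, a ratio of 1.14 (1.11 to 1.17). Adam17, a sheddase of Cxcl16 and of other membrane proteins, was 2.34-fold lower (2.23 to 2.46), and Rhbdf2, which guides Adam17 to the cell surface, 2.18-fold lower (1.76 to 2.70). Adam10, the main constitutive sheddase of Cxcl16, named after its values were seen, was 1.69-fold lower (1.61 to 1.78). Cpd, a carboxypeptidase, was 3.58-fold lower (3.04 to 4.22). Corrected for length, Adam17 stood at -0.95, Rhbdf2 at -0.90, Cpd at -1.09 and Adam10 at -0.40, the last below 1.5-fold. That left 3 of the 5 called lower, beside 15.7% of all genes so corrected. Over the same libraries Cxcl16 itself was 17.6 against 14.2 CPM.

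Of 20 genes for transcription factors and signal proteins that induce chemokines, 1 was called higher and 3 lower, beside 17.1% and 19.8% of all measured genes. Their median log2 ratio was -0.08. Nfkbiz, a nuclear cofactor of NF-kappaB needed for part of the late inflammatory genes, was 2.28-fold lower (1.75 to 2.99) from 81 against 196 counts. Irf8, a factor of the macrophage lineage, was 1.85-fold lower (1.70 to 2.01), and Rela, the p65 subunit of NF-kappaB, 1.61-fold lower (1.44 to 1.80). These 3 stood at -0.95, -0.89 and -0.68 after the length correction. Cebpb, named after its values were seen, was 1.54-fold higher (1.21 to 1.97) and stood at 0.24 after it, and 20.7% of its exon length overlaps another gene. Fos, a subunit of AP-1 also named after its values were seen, had 141 and 209 counts and was called lower after the correction only, at -0.70. The corrected calls were thus 0 higher and 4 lower of 20, beside 9.78% and 15.7% of all genes.

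Many chemokine transcripts carry AU-rich elements, through which binding proteins set their decay. The list of chemokine RNA decay genes also holds endonucleases of the Regnase family. Of its 8 measured genes, 1 was called higher and 2 lower, close to the 17.1% and 19.8% of all measured genes. Zfp36l1, a decay factor of the tristetraprolin family, was 1.60-fold higher (1.40 to 1.83). Zc3h12c, a relative of the endonuclease Regnase-1, was 4.09-fold lower (3.38 to 4.99), and Khsrp, which promotes decay of AU-rich transcripts, 1.60-fold lower (1.51 to 1.69). They stood at 0.65, -1.42 and -0.46 after the length correction, the last no longer called. Hnrnpd, an AU-rich element binding protein named after its values were seen, had 37616 and 31169 counts and was called higher after the correction only, at 0.98. That made 2 higher and 1 lower of 8, beside 9.78% and 15.7% of all genes.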

How the data were processed

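RNA-seq counts per gene were analysed from 2 RAW264.7 libraries, 1 per group, in a single table that the authors deposited for both. Its counts are whole numbers per gene symbol and are not normalised, per the file headers in the layout of featureCounts. The build named per the submitters' processing notes, GRCh38, is human although the symbols are mouse, and their tools include STAR 2.5.3a, fastp 0.23.4 and featureCounts. GENCODE M21 (GRCm38) shares 49083 symbols with the table but only 1358 of their starts, so table positions and GRCm38.p6 sequences were not mixed. For the annotation, the strand setting and reads with several matches the sources used here give nothing. Columns were matched to samples by their description in the labels, with 0 sample columns left unmatched.

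A single library per group leaves edgeR's quasi-likelihood test without residual degrees of freedom, and it was not run. Counts over the whole table were scaled by TMM (edgeR 4.0.16, R 4.3.3; factors 0.957 for FAPD10-exos, 1.05 for vehicle), and each ratio's interval comes from the share of FAPD10-exos in the summed counts (exact Clopper-Pearson). 1 CPM equals 35.6 counts with FAPD10-exos and 37.8 with vehicle, and a gene is measured if its mean reaches 1 CPM. The length correction subtracts a running median over 50 bins of principal transcript length (GENCODE M21). The procedure was tested on simulated data. Intervals and limits cover counting error only. The members and the gene lists were chosen with earlier results of these data known. Named genes were all members, further ligands and receptors with at least 20 counts, the receptors of the members and 3 ligands induced by IL-4 at any count, and in other lists up to 3 called genes with the largest log2 ratio and at least 100 counts. A gene given by this rule is not reported here. Alternatives were other scalings (DESeq2 1.42.0 for median of ratios), filters, folds and length corrections. Other software was matplotlib 3.10.9, scipy 1.17.1, pandas 2.3.3, numpy 2.4.6 and Python 3.11.15.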

Additional observations from a re-analysis of the deposited data

How the results depend on the processing

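No paired analysis was possible because each group holds 1 library, and for the same reason no replicate could be left out. Cxcl2 was called lower under 11 of 12 settings, the exception being a filter at 10 CPM, under which 3 members were left and 0 were called in either direction. The 12 include the main setting. Dropping the filter or keeping only protein-coding genes could not change the call of a measured protein-coding gene such as Cxcl2 or Ccl4. Ccl4 was called higher under 5 of 12: the number of members called higher was 0 under total counts, median of ratios, both length corrections, a 2-fold threshold, 1 CPM added and the filter at 10 CPM. Members called lower numbered 2 under both length corrections, by transcript and by table length. Ccl4 reversed to -0.0513 in log2 under the transcript length correction and stood at 0.16 under the table length correction. The median log2 ratio of the members was -0.28 under total counts, -0.32 under the table length correction and 0.31 over 9 members with no filter. Of the 61 other measured pathway genes, 2 were called higher and 14 lower, beside 17.1% and 19.8% of all measured genes. Pathway genes called higher were 0 under total counts, 1 under median of ratios, 4 under upper quartile and 5 under the transcript length correction. They were 0 at 2-fold, 1 with 1 CPM added and 1 at 10 CPM. Pathway genes called lower were 7 at 2-fold and 8 at 10 CPM. Over all genes, 514 were called higher and 1059 lower at 2-fold, against 2097 and 2429 at 1.5-fold. With the filter at 10 CPM they were 1162 and 1372, and with the transcript length correction 1146 and 1842. Under total counts they were 1458 higher and 3060 lower, and under median of ratios 1879 and 2630. Under upper quartile they were 2480 and 2132, and with 1 CPM added 1679 and 2084. Depth limits Ccl2, Ccl5, Ccl6 and Cxcl10, whose intervals included 1.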

Other observations

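Some genes beside Cxcl16 differed from it within the same stretch of chromosome, and others went in its direction. Zmynd15, which shares exon sequence with Cxcl16, had 40 counts with FAPD10-exos and 101 with vehicle, 2.38-fold lower, while Cxcl16 was higher. Med11, on the other side of Cxcl16, had 676 and 416 counts, a ratio of 1.73 (1.53 to 1.95), or 0.12 in log2 once corrected for length. Pelp1, further along, had 11010 and 7093 counts, a ratio of 1.65 (1.60 to 1.70), and stood at 0.85 after it. Arrb2, between Pelp1 and Med11, had 1416 and 1123 counts, a ratio of 1.34 (1.24 to 1.45), and stood at 0.16. Cxcl16 itself had a ratio of 1.25 and stood at 0.30. These genes were picked after their values were seen.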
